A study of Homo sapiens with 12 samples.

Results

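Acetylation of histone H3 at lysine 27 (H3K27ac) was examined at 9 genes that govern the passage of cells through G1 or respond to p53, namely CCND1, CCND3, CCNE1, CDK4, CDK6, CDKN1A, CDKN1B, MDM2 and E2F1, out of 20007 protein-coding genes. They were taken by name. For each gene, all H3K27ac peaks within 1 kb and within 50 kb of its GENCODE transcript starts on hg38 were collected, and for CDK6 also those in the gene body. These searches returned between 105 peaks (untreated replicate 1) and 153 peaks (untreated replicate 2) per library. Merging the 20000 highest peaks per library across libraries, with gaps of up to 100 bp closed, gave 38598 regions, of which 63 lay near the 9 genes.

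The cells were HCT116, a human colorectal carcinoma line with an activated MAPK pathway and wild-type p53, profiled by CUT&RUN, in which an antibody tethers a nuclease to the marked chromatin so that the released DNA can be sequenced. Both untreated replicates received neither agent. The cobimetinib group received 1 μM of this inhibitor of the MAPK kinase MEK1 for 24 hours, and the TNFα group received 100 ng/ml of the cytokine TNFα for 24 hours, with 2 replicates each. All libraries came from a single cell line, the treated arms were compared with the same untreated libraries, and the IgG libraries were not analysed here.

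The deposited lists held between 69813 peaks (cobimetinib replicate 2) and 124771 peaks (untreated replicate 2). Read depth cannot be read from peak lists, so a peak is described by its width and by its rank by score within its own list, where rank 1 is the highest. Untreated replicate 2 stood apart: its median peak was 190 bp wide, against 278 to 365 bp in the other 5 lists, and 58.8% of protein-coding genes had a promoter peak in it, against 61.5% to 65.4%. Results that rest on this library are therefore given with and without it. Of 8 colorectal epithelial marker genes, 7 had a promoter peak in every library and 3 to 7 had one among the 20000 highest. Of 11 markers of leukocytes, fibroblasts, hepatocytes and endothelium, 1 to 3 had one among the 20000 highest, with COL1A1 in all 6 libraries and PTPRC, CD3E, ALB and APOA2 in none. In a bulk profile, fewer cells carrying the mark and less mark per cell cannot be told apart.

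In G1, D-type cyclins (CCND1, CCND3) bind the kinases CDK4 and CDK6, and cyclin E (CCNE1) then takes over. Together these kinases phosphorylate RB and release E2F factors such as E2F1, which switch on S phase genes. The inhibitors p21 (CDKN1A) and p27 (CDKN1B) restrain the cyclin-kinase complexes, p53 induces CDKN1A, and MDM2 is a p53 target whose product drives p53 degradation. MAPK signaling and AP1 are classic inducers of CCND1, and TNFα activates NF-κB.

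The p53 response of CDKN1A and MDM2 is read from short sites of 20 bases. A search for the p53 consensus on hg38 within 1 kb of any start of the 9 genes, contiguous and with up to 2 mismatches, found the distal CDKN1A site and the MDM2 intronic site below, shown because they bear on whether acetylation covered the sites. Both are written along the + strand, with capitals for the whole match, at chr6:36676449-36676468 and chr12:68808923-68808942.
CDKN1A distal p53 site: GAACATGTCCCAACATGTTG
MDM2 intronic p53 site: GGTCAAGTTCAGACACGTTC
Such a match lay within 1 kb of a start in 14.4% of protein-coding genes, so it is not rare. The CDKN1A site lay 2256 bp upstream of the canonical start, and the MDM2 site 755 bp downstream of the canonical start. The MDM2 site lay inside a peak in all 6 libraries, whereas the CDKN1A site was overlapped only in cobimetinib replicate 1, by a peak at rank 84546.5. A further match at CDKN1A, 1374 bp upstream, and single matches at CCND3, CCNE1 and CDK6 starts were covered by no peak in any library. Beyond this window, matches also lay in regions near CCND3, CDK6 and E2F1.

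Next come a stretch of an intronic CDK6 region that differed in presence between the conditions, and 2 promoters with an E2F word. Capitals in the first mark a match to the NF-κB consensus, searched on both strands together with the AP1 words TGAGTCA and TGACTCA, of which it held none. Capitals in the promoters mark the E2F words TTTCGCGC or TTTGGCGC on either strand. The positions are chr7:92641972-92642271 (+ strand), chr20:33686386-33686585 (− strand) and chr11:69640956-69641155 (+ strand).
CDK6 intron: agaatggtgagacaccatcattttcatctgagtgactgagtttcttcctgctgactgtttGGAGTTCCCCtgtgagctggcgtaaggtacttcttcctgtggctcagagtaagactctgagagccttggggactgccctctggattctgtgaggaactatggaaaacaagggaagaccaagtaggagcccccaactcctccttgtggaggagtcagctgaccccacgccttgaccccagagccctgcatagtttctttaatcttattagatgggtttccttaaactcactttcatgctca
E2F1 promoter: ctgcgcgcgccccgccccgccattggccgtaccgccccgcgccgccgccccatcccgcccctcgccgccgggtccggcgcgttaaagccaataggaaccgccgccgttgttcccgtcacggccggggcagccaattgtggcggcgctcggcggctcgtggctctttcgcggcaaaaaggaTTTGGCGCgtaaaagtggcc
CCND1 promoter: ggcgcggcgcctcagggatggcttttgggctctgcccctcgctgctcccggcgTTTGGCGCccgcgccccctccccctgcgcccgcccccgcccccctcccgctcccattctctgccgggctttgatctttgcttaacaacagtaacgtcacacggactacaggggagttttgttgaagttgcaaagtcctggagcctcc
The CDK6 stretch is the central 300 bases of its region. Of all 38598 region centres of this length, 16% held an AP1 word and 9.21% an NF-κB match. The promoters are the 200 bases before the canonical starts. Among 34943 RefSeq promoter windows (GRCh38.p14), 0.956% held an E2F word in the 250 bases before the start, and among the 8 of 9 genes with a RefSeq window these were MDM2 and E2F1. These are matches of letters and show no binding.

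At promoters, defined as windows within 1 kb of any transcript start, all 9 genes had a peak in all 4 treated libraries and 8 of 9 had one in each untreated library. CCND1 lacked one in untreated replicate 1 and CDKN1A in untreated replicate 2, leaving 7 genes with a promoter peak in all 6 libraries, beside 51.9% of all protein-coding genes. The members' best promoter peaks ranked at a median of 8982.5 to 10494 in the treated libraries, 9180.8 in untreated replicate 1 and 24424 in untreated replicate 2. Over all protein-coding genes with a peak, the medians were 10332 to 11921 in the treated libraries, 10336 in untreated replicate 1 and 13968 in untreated replicate 2. The plot of promoter peaks by library shows each gene's rank and width. Orders of the libraries by condition, given below for single genes and regions, are descriptions. How many of all promoters or regions order 2 libraries a group in this way was not counted.

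**Figure D1:**
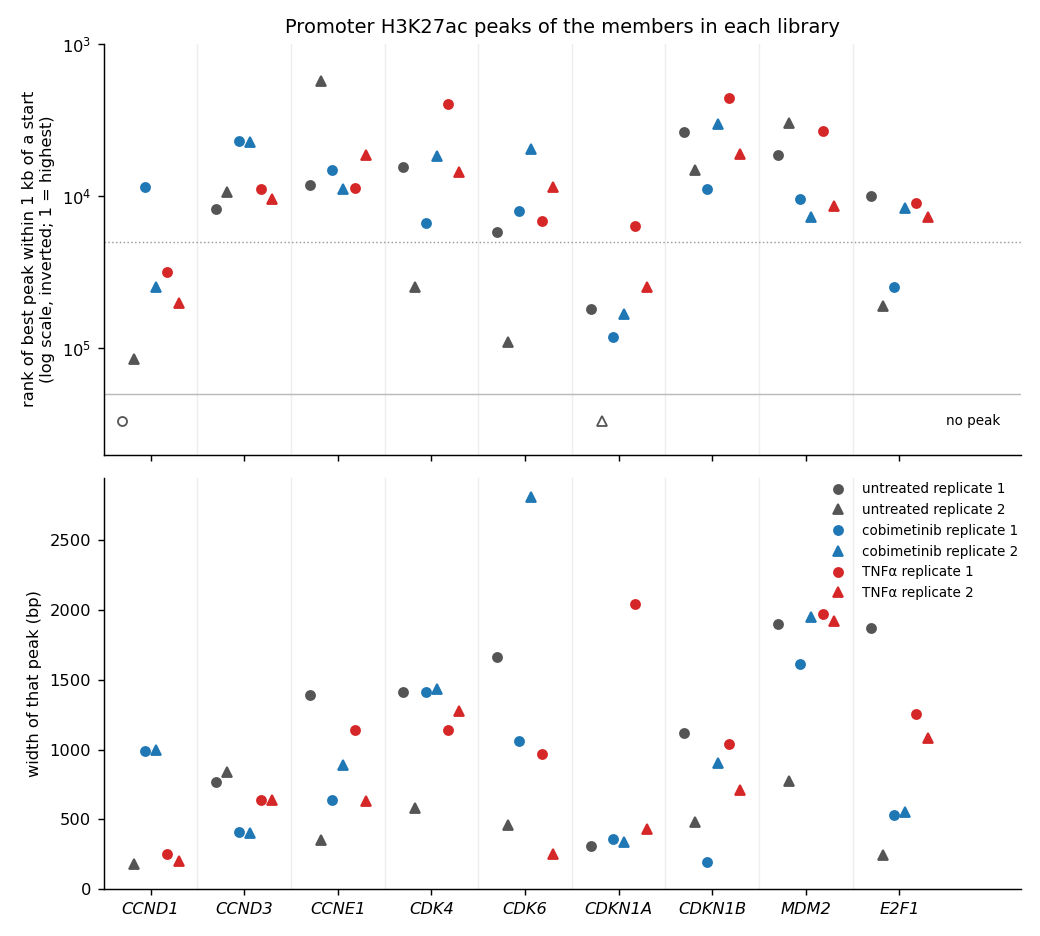
Best H3K27ac peak within 1 kb of a transcript start of each gene, with its rank in the library's list above (log scale, 1 is the highest, dotted line at rank 20000, open symbols for no peak) and its width in bp below; each symbol is one library. CDKN1A and CCND1 sit low in most libraries, and untreated replicate 2 is the lowest of the libraries with a peak for CCND1, CDK4, CDK6 and E2F1.

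Cyclin D1 had a weak promoter and a stronger flank. The CCND1 start (chr11:69641156, + strand, printed above) had no peak in untreated replicate 1 and one at rank 117375 in untreated replicate 2. Its ranks were 8776 and 39532 with cobimetinib (replicates 1 and 2) and 31693 and 50791.5 with TNFα. All 4 treated libraries were thus above both untreated ones, and only cobimetinib replicate 1 was among the 20000 highest. The absence depends on the 1 kb edge. In the region chr11:69641656-69642641, which reaches past it, untreated replicate 1 had a peak of 312 bp at rank 83388. TNFα replicate 2 was only just above that, at 81531.5. The best peak within 1 kb was 986 and 997 bp wide with cobimetinib against 253 and 201 bp with TNFα and 176 bp in untreated replicate 2. By contrast, a region 1578 bp upstream of the start, chr11:69636671-69639578, was held by all 6 libraries, at ranks 12813.5 and 3306 in untreated cells, 11336.5 and 15332 with cobimetinib, and 7817 and 15391 with TNFα. The groups overlapped in this upstream region.

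Cyclin D3 and cyclin E1 kept promoter acetylation throughout. The best CCND3 promoter peak ranked 12221.5 and 9374 in untreated cells, 4344 and 4411 with cobimetinib, and 8987.5 and 10494.5 with TNFα. Both cobimetinib libraries stood above the other 4, but in both of them, in untreated replicate 1 and in TNFα replicate 1 the peak belonged to a distal CCND3 start beside that of TAF8, a component of the TFIID complex, 109.0 kb upstream of the canonical start. At the canonical CCND3 start group (chr6:41940585-41941808, − strand) the ranks were 17120.5 and 9374, 7232.5 and 10489, and 27673 and 10494.5 in the same order, and the groups overlapped. An upstream CCND3 region, chr6:41966386-41968047, ranked 1968 and 3185.5 in untreated cells, 8423.5 and 15332 with cobimetinib, and 4841.5 and 1339.5 with TNFα, so that both cobimetinib libraries were the lowest, although the peak was among the 20000 highest everywhere. The CCNE1 promoter (chr19:29810652-29812185) was held by all 6 libraries at ranks 8392.5 and 1764.5 (untreated), 6729.5 and 8982.5 (cobimetinib), and 8791.5 and 5334.5 (TNFα), with overlap between the groups.

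CDK4 and CDK6 are the catalytic partners of the D-type cyclins. CDK4 promoter peaks ranked 6483 and 39474.5 in untreated cells, 14953 and 5476 with cobimetinib, and 2499 and 6899.5 with TNFα, and these overlapped. CDK6 promoter peaks (chr7:92833784-92836596, − strand) ranked 17120.5 and 91529 in untreated cells, 12520 and 4939.5 with cobimetinib, and 14643 and 8745 with TNFα. The 4 treated libraries were above both untreated ones, by a wide margin only for untreated replicate 2. CDK6 had 18 regions, the most of the 9 genes, in a searched window that took in the gene body and was 318297 bp long against 106219 bp for CDK4. Its peaks covered 14670 bp (untreated replicate 2) to 24757 bp (TNFα replicate 1) of that window, and CDK4 peaks 4706 bp (untreated replicate 2) to 8489 bp (untreated replicate 1) of theirs.

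Of the inhibitors, CDKN1A shared with CCND1 the weakest promoter peaks, each having only 1 library with a promoter peak among the 20000 highest. Its best promoter peak ranked 54939 in untreated replicate 1, was missing in untreated replicate 2, ranked 84546.5 and 60033.5 with cobimetinib, and 15717.5 and 39485.5 with TNFα. Both TNFα libraries stood above the other 4. With cobimetinib the only promoter peaks were at the upstream start group next to the distal p53 site, and with TNFα they were at the canonical start. In the first intron, the region chr6:36679193-36681239, which starts 422 bp from the nearest annotated start, ranked 24358 and 34024.5 in untreated cells, 96898.5 in cobimetinib replicate 1, none in cobimetinib replicate 2, and 15717.5 and 17835 with TNFα. The 3 groups did not overlap here, with TNFα highest and cobimetinib lowest. It became a region only through the TNFα libraries, so the high place of TNFα was built in. In TNFα replicate 1 this is the same peak as the promoter peak above. This region held 3 AP1 words.

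CDKN1B has its canonical start at chr12:12717368 (+ strand) and noncoding transcripts that start upstream beside GPR19, an orphan receptor gene. The upstream start region, chr12:12695892-12697130, centred 20.9 kb before the canonical start, was held by all 6 libraries at ranks 3765.5 and 6729.5 (untreated), 10624.5 and 3353 (cobimetinib), and 2262 and 5254.5 (TNFα), with overlap. The canonical start region, chr12:12717107-12717615, gave another order, with ranks of 66701.5 and 36797.5 in untreated cells, 9042.5 and 19222.5 with cobimetinib, and no peak and 55390.5 with TNFα. Within 1 kb of the starts there, TNFα replicate 1 had a peak of 178 bp at rank 51706, outside this region. Both cobimetinib libraries stood above the other 4 at the p27 start itself, but it became a region only through them. Widths did not follow this order, at 191 and 509 bp with cobimetinib, 216 and 424 bp in untreated cells and 472 bp in TNFα replicate 2. The members' best promoter peak for CDKN1B therefore describes mostly the upstream start.

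MDM2 had broad promoter acetylation across both of its start clusters. The region chr12:68807203-68809278 covers the first 2 exons, the p53 site printed above and the p53-responsive starts, and its peaks were 773 to 1970 bp wide. It ranked 5400.5 and 3306 in untreated cells, 10448 and 13770 with cobimetinib, and 3737.5 and 11687.5 with TNFα. Both cobimetinib libraries lay below both untreated ones, whereas TNFα overlapped each. Further upstream, a region before the canonical start had a peak at rank 85772 in untreated replicate 1, no peak in untreated replicate 2 or in either cobimetinib library, and ranked 15973 and 8313 with TNFα. It is closer to a start of the neighbouring SLC35E3 than to those of MDM2. Only the TNFα libraries made it a region, so the high place of TNFα was built in.

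The E2F1 promoter (chr20:33684921-33686792), whose last bases before the start hold the E2F word shown above, ranked 9969 and 53122 in untreated cells, 39695.5 and 11910 with cobimetinib, and 11148 and 13643 with TNFα. The replicates of the untreated and cobimetinib groups spread more than the groups differed. The peak was 1872 bp wide in untreated replicate 1, 240 bp in untreated replicate 2, 530 and 552 bp with cobimetinib and 1257 and 1081 bp with TNFα.

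The promoter ranks were compared across all 10389 protein-coding genes with a promoter peak in all 6 libraries, by limma with Benjamini-Hochberg adjustment, on minus log2 of the rank. In each of the 3 contrasts 0 genes (0%) passed an adjusted p of 0.05, so 0 of the 7 members tested did, and 848, 360 and 560 genes were under an unadjusted p of 0.05 for cobimetinib against untreated, TNFα against untreated, and TNFα against cobimetinib. Of the members, 1 was under it in the first contrast and none in the others. This was CDK6, whose promoter ranked 2.33 ± 0.89 log2 units (SE, n = 2 per group) higher with cobimetinib than without treatment, with an adjusted p of 0.562 by limma. The median over all genes moved by 0.31, 0.11 and −0.21 in the 3 contrasts, and that over the 7 members was 0.08, 0.55 and 0.68. MDM2 shifted by −1.50 ± 0.81 with cobimetinib, CDK4 by 1.95 ± 0.96 with TNFα, and CCND3 by 1.29 ± 0.73 with cobimetinib, all on the same log2 rank scale and none past the threshold.

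**Figure D2:**
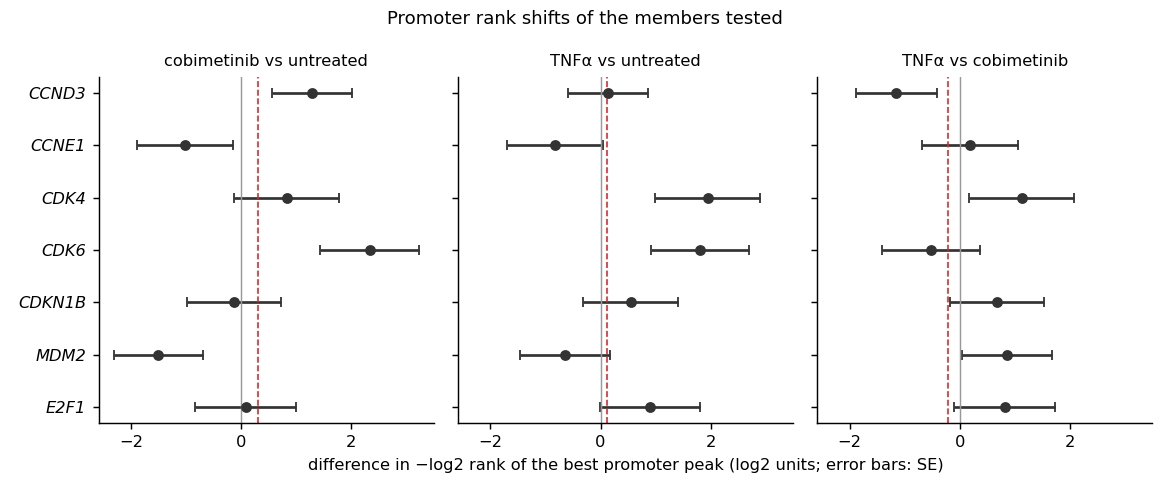
Differences in minus log2 promoter rank (x axis, log2 units) for the 7 genes with a promoter peak in all 6 libraries in the 3 contrasts; points are limma estimates, bars are SE and the dashed line is the median over all 10389 genes. The SE spans 0.730 to 0.958, and no gene passed the adjusted threshold.

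Of the 7 members tested, the untreated replicates differed most at CDK4, CDK6 and E2F1. Without untreated replicate 1, untreated replicate 2 alone stood for untreated cells, so only effect sizes are given. Over all 10401 genes tested, the median shift against it was 0.811 with cobimetinib and 0.580 with TNFα. In the same order, CDK6 was at 3.54 and 3.02 and CDK4 at 2.12 and 3.25. E2F1 was at 1.29 and 2.11 and CCND1 at 2.66 and 1.55. CCNE1 went the other way, at −2.14 and −1.96, as did MDM2 with cobimetinib, at −1.86. Without untreated replicate 2, the median shift over all 11332 genes tested was −0.124 with cobimetinib and −0.337 with TNFα. CDK6 was then at 1.12 with cobimetinib and 0.60 with TNFα, CDK4 at −0.48 and 0.64, and E2F1 at −1.12 and −0.31, whereas CCND3 (1.48) and MDM2 (−1.15) with cobimetinib kept their direction. Widths of the best promoter peak gave 0 calls (0%) in each contrast by limma, with 71, 67 and 62 of 10389 genes under an unadjusted p of 0.05. With 2 libraries a group, an exact two-sided permutation test of a single gene cannot go below a p of 0.333, and p-values measure the spread between libraries that the study's methods describe as treatment replicates of the single cell line.

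Regions were next compared by presence. A library held a region if one of its 20000 highest peaks overlapped it by at least 1 bp. Of the 63 regions near the members, 15 (23.8%) were held by all 6 libraries and 19 (30.2%) by a single library, 8 of these by untreated replicate 2. Over all 38598 regions the shares were 20.5% and 40.6%. CDK6 had 5 of the regions held by all 6 libraries and CCND3 had 3, as the map of regions by library shows, and CDKN1A had none.

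**Figure D3:**
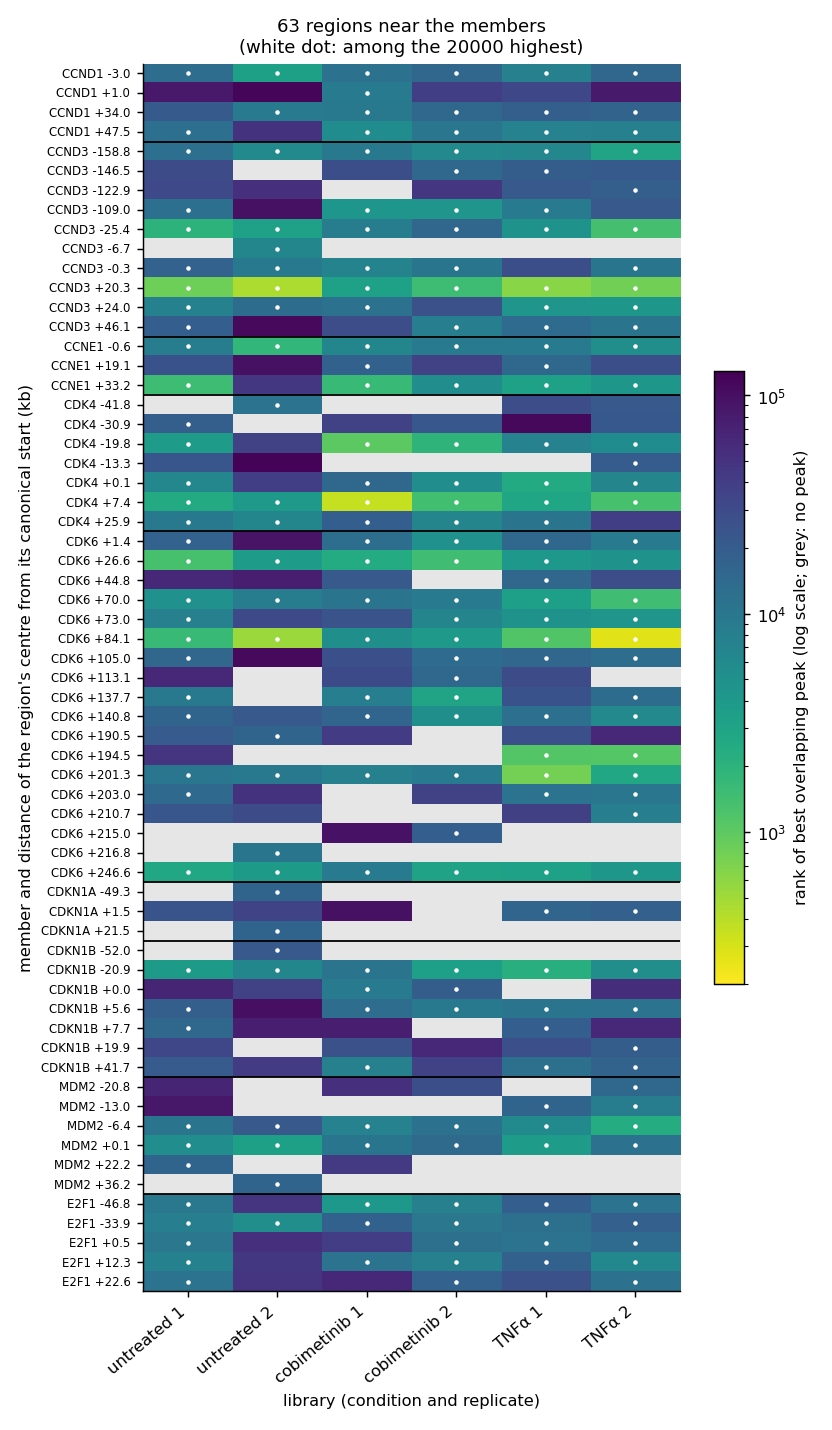
Rank of the best overlapping peak (colour, log scale, grey for none) in each of the 63 regions (rows, labelled by gene and distance of the region's centre from the canonical start in kb) and 6 libraries (columns); white dots mark peaks among the 20000 highest. The CDK6 region at 194.5 kb is among the highest in both TNFα libraries and absent or low in the other 4.

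Held by both TNFα and neither untreated library were 4 of the 63 regions (6.35%), beside 3.56% of all regions. These were the CDK6 intronic region printed above, the MDM2 upstream region, the first intron of CDKN1A, and a region 41.7 kb downstream of the CDKN1B start inside APOLD1, at chr12:12758462-12759709. Held by both TNFα and neither cobimetinib library were 4 regions (6.35%), beside 5.41% of all, namely the same CDK6, MDM2 and CDKN1A regions and a second CDK6 region at chr7:92632787-92634329. Only 1 region (1.59%) was gained with cobimetinib, beside 3.92% of all, and 1 (1.59%) was held by both cobimetinib and neither TNFα library, beside 4.39%. Both counts are the canonical CDKN1B start. Regions held by both untreated and neither treated library numbered 0 near the members for cobimetinib (1.6% of all regions) and 0 for TNFα (1% of all). Without untreated replicate 2 they numbered 4 (7.27%, beside 10.4%) and 2 (3.64%, beside 9.05%). With all 6 libraries, the share near the members was thus above that of all regions in both TNFα sets and below it in the other 4. Each of these rests on 4 regions or fewer. Under other settings this order turned at least once in every set, as given at the end. These counts carry no test.

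The absence in these sets is often a matter of rank. The CDKN1A intron had a peak in both untreated libraries, at ranks of 24358 and 34024.5, and so did the APOLD1 region, at ranks of 20160 and 42366. When absence required no peak among the 40000 highest, 2 regions remained in the TNFα gained set (3.17%, beside 0.912% of all regions), at CDK6 and MDM2, and the CDKN1B start left the cobimetinib gained set because of its rank of 36797.5 in untreated replicate 2.

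Of the 18 CDK6 regions, those described next were picked after their ranks were seen. The share of all regions with such orders was not counted. The region chr7:92641569-92642674, in intron 5 and centred 194.5 kb downstream of the canonical start, ranked 1123 and 1092 with TNFα. It had a peak at rank 47575 in untreated replicate 1 and no peak in untreated replicate 2 or in either cobimetinib library. The TNFα peaks were 1073 and 1085 bp wide against 560 bp for the single untreated peak. Its centre holds the NF-κB match shown above, and 1 AP1 word lies elsewhere in the region.

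Its neighbours in intron 5 moved less. The region chr7:92634532-92635984, 201.3 kb from the start, ranked 10336 and 9374 in untreated cells, 7825 and 8982.5 with cobimetinib, and 773 and 2714.5 with TNFα. It was held by all 6 libraries, and both TNFα libraries were above the other 4. The next region, chr7:92632787-92634329, ranked 14067 and 50469.5, none and 36157, and 11148 and 10312.5 in the same order, so that TNFα was highest, closely followed by untreated replicate 1.

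In intron 3, 2 regions were low with cobimetinib. The region chr7:92751598-92753423, 84.1 kb from the start, ranked 1620 and 527 in untreated cells, 5170.5 and 3874.5 with cobimetinib, and 1161.5 and 268 with TNFα. The region chr7:92765428-92767642, 70.0 kb from the start, ranked 4962.5 and 8297, 10624.5 and 9254.5, and 3364 and 1468 in the same order. In both, the cobimetinib libraries were the lowest 2 and TNFα replicate 2 was the highest. In the opposite direction, chr7:92698115-92699638 in intron 4 ranked 9412.5 and none in untreated cells, 8067.5 and 2987.5 with cobimetinib, and 25724 and 13319 with TNFα.

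**Figure D4:**
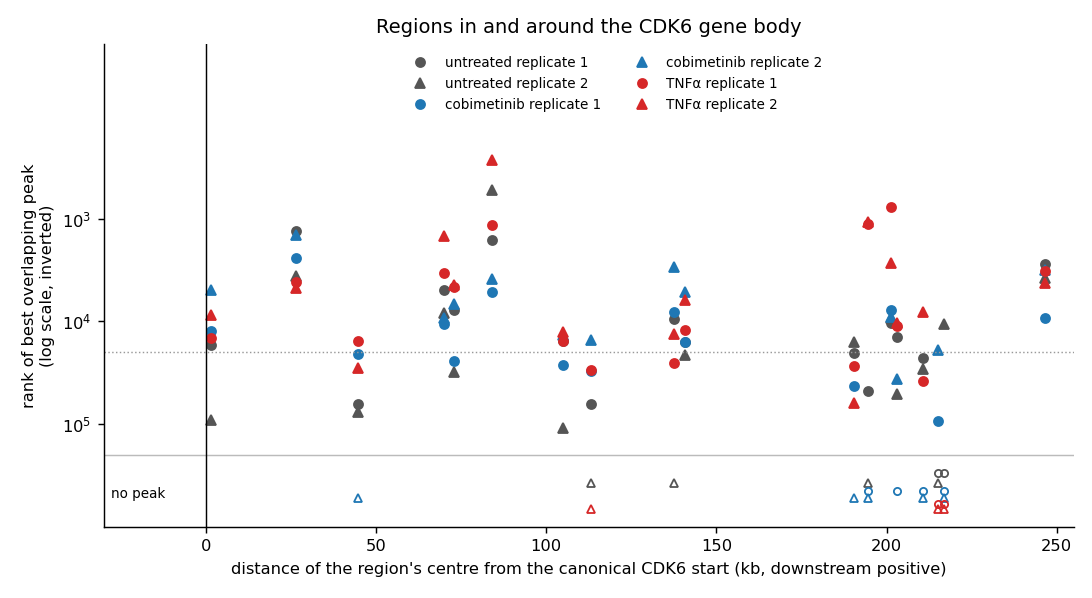
Rank of the best overlapping peak (y axis, log scale, 1 is the highest, dotted line at rank 20000, open symbols below the grey line for no peak) against the distance of each of the 18 CDK6 regions from the canonical start (x axis, kb). At 194.5 kb both TNFα libraries lie at ranks 1123 and 1092, and at 84.1 kb both cobimetinib libraries are the lowest.

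A limma fit over all 18053 regions with a peak in all 6 libraries, added after the data were seen, called 0 regions (0%) for cobimetinib against untreated, with 2158 under an unadjusted p of 0.05, 3 regions (0.0166%) for TNFα against untreated and 125 (0.692%) for TNFα against cobimetinib, with none near the members. There, the CDK6 regions at 201.3 kb and 84.1 kb ranked 2.53 ± 0.82 and 3.0 ± 0.98 log2 units (SE) higher with TNFα than with cobimetinib, with adjusted p of 0.202 and 0.204. In the same contrast without the untreated libraries, which rests on 2 against 2 libraries, 1629 of 21911 regions (7.43%) passed, among them 4 near the members. These were the CDK6 regions at 201.3 kb (adjusted p = 0.0323) and 84.1 kb (adjusted p = 0.025) and a region at the start of MED20 near CCND3 (chr6:41917349-41918208, 2.00 ± 0.61, adjusted p = 0.035), all higher with TNFα, and the intron 4 region of CDK6, which was lower (−1.91 ± 0.61, adjusted p = 0.0459).

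The intron 5 region of CDK6 at 194.5 kb could enter only where a missing peak was set to the length of the list plus 1, over 31418 regions with a peak in at least 2 libraries. That fit called 64 regions (0.204%) for cobimetinib against untreated, 31 (0.0987%) for TNFα against untreated and 368 (1.17%) for TNFα against cobimetinib. This CDK6 region was the 1 region near the members among them, called in both TNFα contrasts. It became a region only through the TNFα libraries, and both cobimetinib values and 1 untreated value are the filled constant, which carries no spread of its own. Its ranks are therefore given as a description, and no shift or p is given for it.

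Without the untreated libraries the same fit called 2775 regions (8.83%) for TNFα against cobimetinib, 8 of them near the members. Of these, 4 were among the 20000 highest peaks in only 1 of the 2 groups compared, namely the CDK6 regions at 194.5 and 203.0 kb, the MDM2 upstream region and the canonical CDKN1B start, and no test is given for them. The other 4 were the CDK6 regions at 201.3, 84.1 and 70.0 kb, all higher with TNFα, the last by 2.16 ± 0.65 (adjusted p = 0.0433), and a region at the METTL1 and EEF1AKMT3 starts near CDK4, higher with cobimetinib (−2.19 ± 0.65, adjusted p = 0.0424). Without filling, the 70.0 kb and METTL1 regions did not pass, at adjusted p of 0.0517 and 0.0716 by limma. With filling, the MED20 and intron 4 regions did not pass, at 0.0564 and 0.0787. All of these have a peak in every treated library, so their calls depend on the fit and not on filled values of their own.

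Other genes of the same pathways were taken as 2 lists. Of 20 other G1 and S phase genes 16 were tested at their promoters and of 25 other p53 pathway genes 21, and 0 of either list passed the threshold in any contrast, beside 0% of all genes. The G1 and S phase list had median rank shifts of −0.19, 0.16 and 0.10 log2 units in the 3 contrasts, and the p53 list 0.14, 0.16 and −0.21, against 0.31, 0.11 and −0.21 over all genes.

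Among the G1 and S phase genes, the largest shifts with all libraries were those of CDKN2D and RBL1. The promoter of RBL1, which encodes the RB relative p107, ranked 877.5 and 5822.5 in untreated cells, 17944 and 18249 with cobimetinib, and 2674 and 6038.5 with TNFα. Both cobimetinib libraries were the lowest, at −3.00 ± 0.94 (unadjusted p = 0.00656, adjusted p = 0.519 by limma), and −4.37 to −1.64 leaving out each library in turn. CDKN2D, which encodes the CDK4 and CDK6 inhibitor p19, ranked 2989.5 and 26242, 21872.5 and 32957.5, and 1300.5 and 8184 in the same order. Its shift between TNFα and cobimetinib was 3.04 ± 1.06, with an adjusted p of 0.803 by limma, and 1.71 to 4.37 leaving out each library in turn. Against untreated cells TNFα gave 1.44 ± 1.06. RBL1 differed between TNFα and cobimetinib by 2.17 ± 0.94. CDK2, the kinase partner of cyclin E, shifted by 1.88 ± 1.33 with cobimetinib and 1.80 ± 1.33 with TNFα, which rests on a rank of 86440.5 in untreated replicate 2 against 2360 in untreated replicate 1.

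Among the p53 pathway genes, FDXR, a mitochondrial ferredoxin reductase gene, shifted by −1.45 ± 0.99 with cobimetinib and differed between TNFα and cobimetinib by 2.05 ± 0.99. MDM4, the MDM2 relative that restrains p53, shifted by −1.59 ± 0.88 with TNFα, TNFRSF10B, which encodes a TRAIL receptor, by −1.22 ± 0.73 with TNFα, and ZMAT3 by −1.68 ± 0.81 between TNFα and cobimetinib. None of these passed the threshold.

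Promoters with the most similar ranks over the 6 libraries were sought on other chromosomes, by the Euclidean distance of minus log2 rank. E2F1 had the closest partner, ACAT1 (0.307), followed by KNSTRN (0.628). CDKN1B was nearest to UVSSA (0.489) and ARAP1 (0.816), CCNE1 to SAR1B (0.586) and SERBP1 (0.602), and CCND3 to APPBP2 (0.595) and ATG12 (0.633). CDK4 was nearest to ING3 (0.64) and CHMP1B (0.836), CDK6 to HARS1 (0.769) and DENND5A (0.802), and MDM2 to SNRPE (0.829) and HLCS (0.861). Both partners of CDK6 and of E2F1 shared the low rank in untreated replicate 2, between 53122 and 109255.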

How the data were processed

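H3K27ac CUT&RUN peak lists of 6 HCT116 libraries (2 untreated, 2 cobimetinib, 2 TNFα) were analysed. The labels list 12 libraries, and the IgG libraries were not analysed here. Per the study's methods and the submitters' processing notes, the authors aligned reads to hg38 with BWA 0.7.15, called peaks with MACS2 2.1.1 in each library without an IgG background in paired-end and single-end mode, and joined each pair of lists, with the larger score retained. The authors' deposited score is a whole number of at least 20. It rises with depth, which is unknown from these lists, so only ranks within a list were used, with ties sharing their mean rank. By its peak names, untreated replicate 2 combines more than a single sequencing run.

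Transcript starts came from GENCODE release 44 and sequence from hg38, whose chromosome ends no peak exceeded. Minus log2 rank and log2 width of the best peak within 1 kb of a start were fitted with limma 3.58.1 (R 4.3.3; trend, group means, two-sided), with Benjamini-Hochberg adjustment over all genes tested and a threshold of 0.05. Regions followed the study's rule (20000 highest peaks per library, merged within 100 bp). The fits of region ranks, with or without a missing peak set to the list length plus 1, and those leaving out the untreated libraries were added after the data were seen. The fit was tested on simulated data. Whether same-numbered replicates were run together is not stated. Deviations of same-numbered promoter ranks correlated only weakly, at −0.04, 0.10 and 0.04 over 10389 genes, so the main fits used no pairing.

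The members and the lists were chosen with earlier results of these data known. Genes named are the 9 members, from the 2 other lists 2 genes a contrast (the rule allowed up to 4) with the largest absolute rank shift (1 of them is not reported here), and for each member the 2 nearest promoters on other chromosomes. Regions named are those called near a member and a few chosen after their values were seen. Alternatives covered the window, start set, tie rule, scaling, missing peaks, replicate block, number of peaks, merging and each replicate left out.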

Additional observations from a re-analysis of the deposited data

How the results depend on the processing

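No promoter or width result was called with all 6 libraries and no replicate block, and the counts of genes called moved mainly with the untreated libraries. Leaving out each replicate in turn gave 0 to 2559 promoter ranks called for cobimetinib against untreated, 0 to 1960 for TNFα against untreated and 0 to 114 for TNFα against cobimetinib, where 94 were called leaving out both untreated libraries. For promoter peak width the ranges were 0 to 3686 and 0 to 3215 against untreated. Region ranks gave 0 to 4700, 0 to 3962 and 5 to 1678 calls, and 1629 in the last contrast leaving out both untreated libraries. With missing peaks filled the ranges were 42 to 8702, 8 to 7717 and 83 to 3009, and 2775 leaving out both untreated libraries. The highest counts against untreated came without untreated replicate 1, when untreated replicate 2 stood alone for its group. A lone library is assumed to vary like the other groups.

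Same-numbered promoter ranks shared little deviation, which does not exclude a shared batch. With a replicate block, 1 gene was called for promoter rank (TNFα against cobimetinib) and 1 for promoter peak width (TNFα against untreated). The block gave 23, 10 and 278 calls for region rank and 413, 182 and 716 with missing peaks filled, in the order cobimetinib against untreated, TNFα against untreated and TNFα against cobimetinib.

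Counts of called regions near the members were small and moved with the rules, as did the shares of all regions. Without untreated replicate 1, 14.5% of the regions near the members and 22.8% of all were lost with cobimetinib, and 30.6% and 16.4% were gained with TNFα. Without untreated replicate 2, 7.27% and 10.4% were lost with cobimetinib, and 3.64% and 5.88% gained. With TNFα, 3.64% and 9.05% were then lost, and 9.09% and 5.48% gained. With the 40000 highest peaks, 3.33% and 0.827% were lost with cobimetinib. Lost with cobimetinib were 2 regions with the 10000 highest peaks (4.88%, beside 3.39% of all regions) and 4 with the 40000 highest. With all deposited peaks 5 were lost (1.59%, beside 1.11%). Leaving out a replicate gave 0 (beside 3.12%) to 9 (14.5%, beside 22.8%). Gained with cobimetinib were 3 with the 40000 highest (2.5%, beside 2.31%) and 5 with all peaks (1.59%, beside 1.4%). There were 2 when merged only where touching (3.12%, beside 3.91%). When absence was judged among the 40000 highest there were 0 (beside 0.948%). Leaving out a replicate gave 2 (3.64%, beside 5.88%) to 13 (21%, beside 16.5%). Gained with TNFα were 2 when absence was judged among the 40000 highest (3.17%, beside 0.912%). Leaving out a replicate gave 5 (9.09%, beside 5.48%) to 19 (30.6%, beside 16.4%). With all peaks the share was 0.952%, beside 1.37%. Lost with TNFα were 2 with the 10000 highest (4.88%, beside 2.17%) and 2 with all peaks (0.635%, beside 1.06%). There was 1 when peaks had to cover 50% of the region (1.59%, beside 0.402%). Leaving out a replicate gave 1 (1.61% or 1.72%, beside 2.54% or 1.95%) to 9 (14.5%, beside 22.2%). Held with TNFα and not cobimetinib were 2 with the 10000 highest (4.88%, beside 7.52%). Leaving out a replicate gave 6 to 9 (9.68% to 14.5%, beside 8.25% to 11.8%). With all peaks the share was 1.27%, beside 1.68%. Held with cobimetinib and not TNFα were 2 with the 10000 highest (4.88%, beside 6.13%) and 2 with the 40000 highest (1.67%, beside 2.99%). There were 4 with all peaks (1.27%, beside 1.63%) and 3 at 50% coverage (4.76%, beside 5.33%). When absence was judged among the 40000 highest there was 1 (1.59%, beside 1.48%). Leaving out a replicate gave 2 to 3 (3.28% to 5.17%, beside 6.76% to 11.1%). In every set, the share near the members was above that of all regions in at least 1 setting and below it in others. The cause was not tested.

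Of 315 alternative values of the members' promoter shifts 284 kept their direction and side of the threshold and 25 turned sign. None of the latter was past the threshold. The rest kept their direction and changed side only where untreated replicate 2 stood alone for untreated cells. Nothing is read from that change. With starts of protein-coding transcripts alone, which drops the upstream start, CDKN1B went to 1.91, −0.11 and −2.02 in the 3 contrasts. In a window of 500 bp CCNE1 went to 1.93 and 2.11 against untreated with cobimetinib and TNFα. Ranked among tested promoters, E2F1 was at −0.14 with cobimetinib. In a window of 2 kb CDKN1A was at −1.31 with cobimetinib and CCND1 at 0.08 between TNFα and cobimetinib. Leaving out each replicate in turn, the cobimetinib shifts spanned −2.14 to 0.11 for CCNE1, −0.48 to 2.12 for CDK4, −0.84 to 0.59 for CDKN1B, −1.12 to 1.29 for E2F1 and −0.72 to 4.47 for CDK2, and CDKN1A was at −0.38. The TNFα shifts spanned −0.05 to 0.33 for CCND3, −1.96 to 0.29 for CCNE1, −0.06 to 1.15 for CDKN1B, −1.47 to 0.18 for MDM2, −0.31 to 2.11 for E2F1, −0.80 to 4.40 for CDK2 and −0.13 to 3.01 for CDKN2D. Between TNFα and cobimetinib they spanned −0.18 to 0.54 for CCNE1, −1.20 to 0.15 for CDK6, −0.04 to 1.39 for CDKN1B and −0.05 to 1.69 for E2F1. Of 137 alternative values of the named regions none turned sign. These regions were picked for their difference in these data, and their ranks did not overlap between the groups compared. Leaving out a library could therefore not turn a sign, and the count lends no weight. It also includes regions with filled values, for which no test is given.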
